A study of Mus musculus with 4 samples.

Results

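A set of 8 genes from a deposited cluster marker table were followed through every cluster that lists them: Gyg, Gpx3, Rbpms, Hcfc1r1, Ifitm1, Emb, Ppp1r1a and Malat1. They were chosen because many of the 15 clusters list them, and they are 8 of the 1197 genes and 86 of the 2212 entries in the table. The cells came from a mouse embryonic stem cell line carrying a FLAG tag on BRG1, the ATPase of a chromatin remodelling complex, in a directed cardiac differentiation. The 4 libraries were tagged wild-type cells and tagged cells with a knockout of BRM (the related ATPase gene Smarca2), each at a mesoderm stage and at a cardiac stage labelled as cardiac progenitors or cardiac myocytes, with 1 library in each group. No value below has a replicate, and every line carries the tag, controls included. The table names clusters by number and carries no library, so genotype and stage were not compared, and a cluster here may hold cells of 1 library or of several. Its name mentions only the BRM knockout, and which of the 4 libraries entered the clustering is unknown. All cells, below, means all cells that were clustered.

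The genes have little in common by function. Gyg encodes glycogenin, which attaches the first glucose residues to itself and so primes each glycogen particle, and heart and skeletal muscle store glycogen as fuel. Gpx3 encodes the secreted glutathione peroxidase, a selenoprotein that removes peroxides outside cells. Rbpms encodes an RNA-binding protein that controls splicing in smooth and heart muscle, and Hcfc1r1 a small regulator that moves the transcription cofactor HCF-1 out of the nucleus. Ifitm1 encodes an interferon-induced transmembrane protein that also marks early mesoderm and the germline, Emb the adhesion protein embigin, which escorts lactate transporters to the membrane, and Ppp1r1a inhibitor-1, which blocks protein phosphatase 1 once protein kinase A has phosphorylated it. Malat1 is an abundant long noncoding RNA that stays in the nucleus.

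A pair of measures is given for each cluster. A fold compares the mean expression of a cluster with that of all other cells and was copied from the authors' deposited table, where the smallest natural log fold change in size is 0.50 and every gene was detected in at least 25.1% of cells inside or outside the cluster that lists it. Other limits may have applied, so a cluster without an entry is not shown to be unchanged. A level sets the cluster's mean against the mean of all cells, so that clusters share 1 scale, and was worked out from the fold and from the cluster's share of cells. An unstated constant, added by the authors ahead of the logs, sits in both measures and pulls weakly expressed genes towards no change. Since these expression values also shaped the clusters, all values are a description, without tests. The number of cells and the reads per cell are unknown, so no interval for counting error could be given.

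The 8 genes were listed higher 19 times and lower 67 times, so 77.9% of their entries were lower, against 41.0% of all entries. Being chosen for many entries, they had a median of 11 clusters per gene, against 1 over all genes. These shares therefore come from unlike sets of genes. With 50% of cells positive inside or outside the cluster, 18 higher and 15 lower entries were left, the latter being 10 of Emb and 5 of Malat1. The other genes were detected in 27.7% to 34.4% of all cells, so their lower entries could hardly reach 50% on either side. The loss of the majority of lower entries under this filter was thus nearly fixed in advance. Gpx3 was listed for 14 of 15 clusters, the most of any gene, Ifitm1 for 13, Emb for 12, Gyg and Hcfc1r1 for 11 each, Rbpms and Ppp1r1a for 9 each and Malat1 for 7. At least 7 clusters listed 50 genes, which is 4.18% of the table, and 790 genes had 1 cluster each. Malat1 is 1 of 11 genes at 7 clusters, and 15 genes stand just outside at 6. The genes that are not among the 8 and that most clusters listed were Myl9 with 13, Ccnd2 and Tagln2 with 12 each, and Crabp1, Krt18, Nnat and Sfrp1 with 11 each. The map of fold changes shows 5 genes whose highest listed cluster is 2, which are Gyg, Gpx3, Rbpms, Hcfc1r1 and Malat1, and a block of 3 genes that are higher in clusters 3 and 7.

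**Figure D1:**
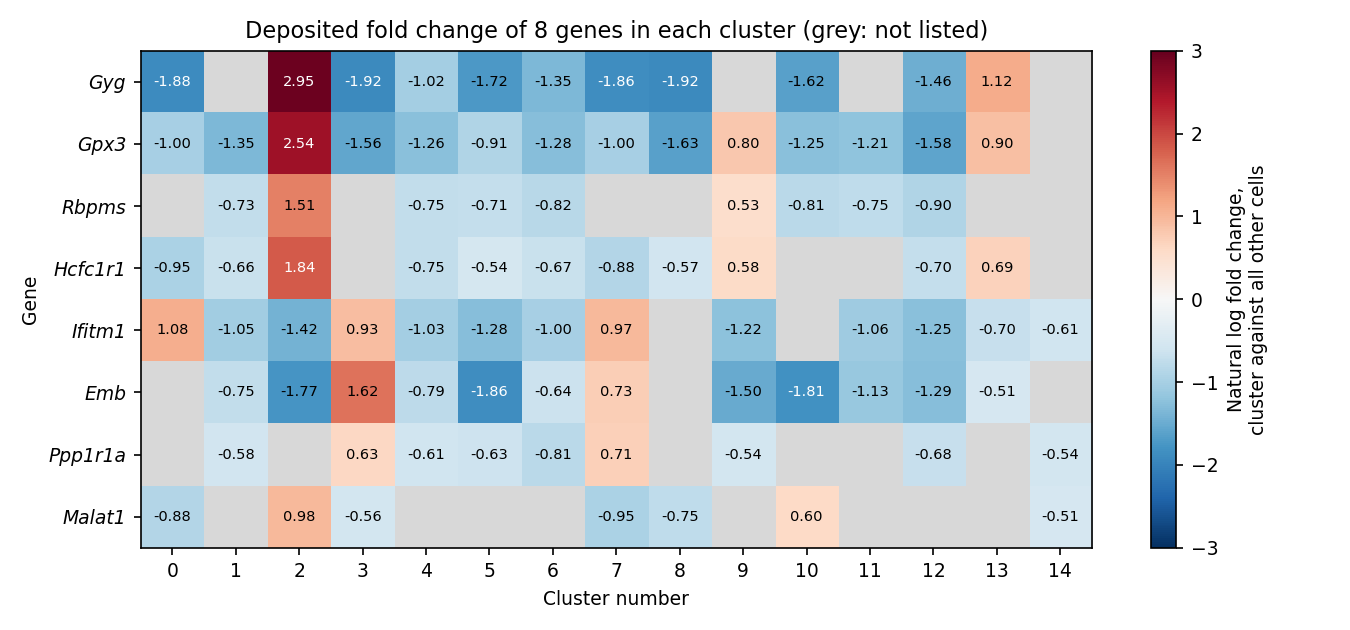
Natural log fold change of the 8 genes (rows) in each of the 15 clusters (columns) against all other cells, from the authors' deposited table, with grey for a gene that is not listed. Gyg, Gpx3, Rbpms and Hcfc1r1 are red in cluster 2, where Ifitm1 and Emb are blue, and Gpx3 has a value in 14 clusters.

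Lists of marker genes were counted in each cluster. Cluster 2 was cardiomyocyte-like, with all 9 cardiomyocyte markers listed higher, and cluster 13 listed the same 9 markers higher together with all 10 mitochondrially encoded genes of the table. Cluster 9 listed 1 of the 9, Tnni1. All 6 epithelial markers were higher in cluster 3, 5 in cluster 14 and 3 in cluster 8. Cluster 14 also listed 4 of 8 endoderm markers higher, cluster 8 listed 3 of 7 pluripotency markers, and clusters 1 and 4 each listed 4 of 9 neural progenitor markers. In cluster 12, 4 of 7 neuron markers were higher, and it was neuron-like. Cluster 10 listed 5 of 8 mesenchyme and fibroblast markers higher. Of 10 nascent mesoderm markers 3 were in the table, each higher in a different cluster. Per the authors' deposited table, T was 8.46-fold higher in cluster 3, Aplnr 2.36-fold in cluster 7 and Pdgfra 2.13-fold in cluster 14. Since the table carries no library, the mesoderm label of 2 libraries could not be checked. Of 8 endothelial and blood markers 1 was in the table, Egfl7.

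Gyg had the widest range of the 8 genes. In the authors' deposited table it was 19.01-fold higher in cluster 2, where 98.1% of cells detected it against 19.1% of all other cells. It was 3.07-fold higher in cluster 13, with 50.8% of cells positive, again from the authors' deposited table. On the common scale Gyg stood at 5.80 times the mean of all cells in cluster 2 and at 3.04 times in cluster 13, a step of 1.91-fold. The next of the clusters that list Gyg, cluster 4, was at 0.382 times the mean, a drop of 7.95-fold from cluster 13. A deposited adjusted p of at most 0.01 would remove that entry, where 30.4% of cells were positive against 29.0% outside. The remaining 8 listed clusters ran without a gap of 0.5 on the natural log scale down to 0.155 in cluster 8, so that the highest and lowest cluster differed 37.5-fold. Cluster 2 held 12.6% of cells and 42.6% of the cells that detected Gyg. The 4 clusters that do not list Gyg (1, 9, 11 and 14) averaged 0.570 times the mean, with 40.0% of their cells positive, so at least 1 of them lay above cluster 4.

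Few other genes of glycogen metabolism stood beside it. Of 25 genes on that list 4 were in the table, Gyg included, and the 3 others were each listed once. Pgm2, a phosphoglucomutase gene, was 2.86-fold higher in cluster 2 per the authors' deposited table. Ppp1r3c, which targets protein phosphatase 1 to glycogen, was 2.15-fold higher there, with 25.2% of cells positive against 1.1%, per the authors' deposited table. Gaa, the lysosomal enzyme that breaks glycogen down, was 1.70-fold higher in cluster 14 per the authors' deposited table. Glycogen synthase (Gys1) and the phosphorylases (Pygm, Pygb and Pygl) were not listed for any cluster.

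Gpx3 was also highest in cluster 2. The authors' deposited table gave it as 12.7-fold higher there, in 96.5% of cells against 25.4%. It was 2.22-fold higher in cluster 9 and 2.45-fold in cluster 13 per the authors' deposited table, and 2.47-fold to 5.11-fold lower in 11 clusters. Levels were 5.12 in cluster 2, 2.43 in cluster 13 and 2.14 in cluster 9, and the next of the clusters that list Gpx3 was cluster 5 at 0.426. Cluster 14, which does not list it and holds 0.291% of cells, came out between them, at 1.55 times the mean with 82.9% positive. With the other solutions for cluster sizes it was at 1.49 times in each, with 80.2% and 82.6% positive. These values are what the listed clusters leave over, spread on a very small cluster. All steps among the 11 low clusters were smaller than 0.5 on the natural log scale, and the lowest level was 0.206, in cluster 8. Clusters 9 and 13 lay within 1.14-fold of each other in level although 84.2% of the cells of cluster 9 and 50.8% of those of cluster 13 were positive per the authors' deposited table.

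The peroxide and glutathione list did not follow Gpx3 as a whole. Of its 32 symbols, which include older and newer names of the same gene, 12 were in the table. Besides Gpx3, cluster 2 listed 3 of them higher and 4 lower, where 22.7% and 25.7% of all table genes were listed higher and lower. The mitochondrial enzymes Prdx3 and Sod2 were 2.30-fold and 1.99-fold higher and the selenoprotein gene Selm 2.01-fold higher in cluster 2 per the authors' deposited table. The peroxiredoxin gene Prdx1 was 2.36-fold lower and thioredoxin (Txn1) 2.01-fold lower in that cluster per the authors' deposited table, as were Txnrd1 and Prdx4 by 1.83-fold and 1.65-fold. Gpx4, which protects membrane lipids, was the only other glutathione peroxidase listed, at 2.05-fold higher in cluster 14 per the authors' deposited table.

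Rbpms was 4.53-fold higher in cluster 2 and 1.70-fold in cluster 9 per the authors' deposited table, with 82.7% and 56.1% of cells positive. It was listed lower in 7 clusters, by 2.04-fold to 2.46-fold per the authors' deposited table. Its level was 3.13 in cluster 2 and 1.66 in cluster 9. The 7 lower clusters lay between 0.410 (cluster 12) and 0.518 (cluster 1), with neighbouring clusters at most 1.10-fold apart. The neuron-like cluster 12 had the fewest positive cells, 4.5% per the authors' deposited table. Unlike Gyg, Gpx3 and Hcfc1r1, Rbpms was not listed for cluster 13.

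Of 22 symbols on the list of splicing regulators, Qk and Qki being 1 gene, 9 were in the table. Besides Rbpms, cluster 2 listed 6 of them higher and 1 lower, beside 22.7% and 25.7% of all table genes. Rbm24, a splicing factor of heart and skeletal muscle, was 3.26-fold higher, Mbnl2 2.25-fold and Qk 2.11-fold in cluster 2 per the authors' deposited table. Ptbp1, which represses many muscle and neuronal exons, was 1.82-fold lower there, in 9.2% of cells against 31.4%, per the authors' deposited table. The paralogue Rbpms2 was 1.71-fold higher in cluster 2 and 1.84-fold in cluster 8, a cluster that does not list Rbpms, per the authors' deposited table.

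Hcfc1r1 was 6.27-fold higher in cluster 2 per the authors' deposited table, in 92.0% of cells against 24.5%. It was 1.99-fold higher in cluster 13 and 1.79-fold in cluster 9, and 1.71-fold to 2.59-fold lower in 8 clusters, per the authors' deposited table. The levels were 3.76, 1.98 and 1.74 in clusters 2, 13 and 9, and 0.427 to 0.606 in the 8 lower clusters. The order of the 3 high clusters was the same as for Gpx3, and clusters 13 and 9 were again within 1.14-fold. Of 14 genes on the list of HCF-1 and partners, the only other one in the table was Ccnd1, the cyclin D1 gene, which was 3.02-fold lower in cluster 2 and 2.62-fold higher in cluster 1 per the authors' deposited table. HCF-1 itself (Hcfc1) was not listed.

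**Figure D2:**
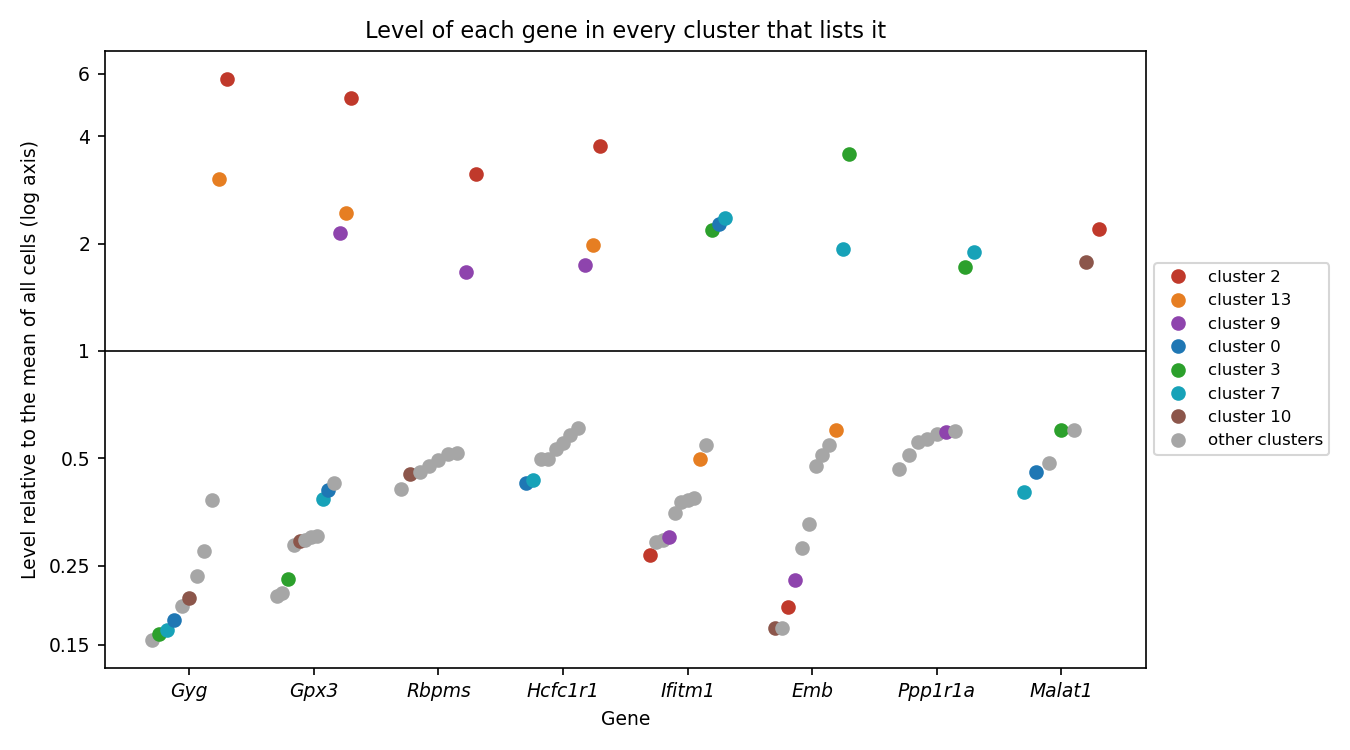
Level of each gene (x axis) in every cluster that lists it, relative to the mean of all cells (y axis, log scale), with 1 point per cluster and the line at 1 marking the mean of all cells. Gyg, Gpx3, Rbpms and Hcfc1r1 have cluster 2 at the top, at 3.13 to 5.80, and the points below the line lie close together.

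Promoter windows are shown for Gpx3, Gyg and Hcfc1r1, since these 3 genes were all higher in clusters 2 and 13. RefSeq windows on GRCm38.p6, from 250 bases before to 50 bases after the annotated start, were found for 6 of the 8 genes. The files use mm9, so these positions serve for the sequences only. Each sequence is on its gene's strand, at chr11:54902604-54902903 (plus strand) for Gpx3, chr3:20155067-20155366 (minus strand) for Gyg and chr17:23673358-23673657 (plus strand) for Hcfc1r1. Capitals mark matches on either strand to 5 motifs. The TATA box was searched for as TATAAA and the CCAAT box by the letters of its name. The GC box was searched for as GGGCGG, and the E box was searched for in the form CACGTG. The motif of ZNF143 and THAP11 was chosen after the sequences were seen. No matches overlapped.
Gpx3: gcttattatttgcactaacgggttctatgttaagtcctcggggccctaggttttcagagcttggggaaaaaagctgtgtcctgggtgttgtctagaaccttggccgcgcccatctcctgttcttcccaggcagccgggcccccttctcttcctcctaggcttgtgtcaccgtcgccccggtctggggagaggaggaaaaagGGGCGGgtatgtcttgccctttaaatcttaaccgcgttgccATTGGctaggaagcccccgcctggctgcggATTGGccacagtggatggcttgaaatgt
Gyg: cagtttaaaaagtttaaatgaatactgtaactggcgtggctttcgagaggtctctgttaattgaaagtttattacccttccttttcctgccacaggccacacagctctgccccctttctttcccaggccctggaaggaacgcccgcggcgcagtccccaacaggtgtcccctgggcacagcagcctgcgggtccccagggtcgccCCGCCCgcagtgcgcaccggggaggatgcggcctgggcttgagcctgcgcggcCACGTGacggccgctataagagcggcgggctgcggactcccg
Hcfc1r1: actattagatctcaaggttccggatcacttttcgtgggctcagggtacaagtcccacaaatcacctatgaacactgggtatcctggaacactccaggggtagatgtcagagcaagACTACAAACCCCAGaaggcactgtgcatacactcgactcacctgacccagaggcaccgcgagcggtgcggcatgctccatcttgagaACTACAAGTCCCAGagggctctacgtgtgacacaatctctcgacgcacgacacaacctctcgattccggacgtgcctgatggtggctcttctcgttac

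Gpx3 held 2 CCAAT boxes and 1 GC box, and Gyg 1 GC box and 1 E box. Hcfc1r1 held 2 matches to the ZNF143 and THAP11 motif, at positions 116 and 203 of the window, and none to the other 4 motifs. None of the 5 motifs occurred in all 3 windows. Over all 32851 windows, a TATA box occurred in 13.6%, a CCAAT box in 37.4%, a GC box in 35.7%, an E box in 7.15% and the ZNF143 and THAP11 motif in 1.17%, and 0.103% held at least 2 matches to the last. THAP11 and ZNF143 are known to act with HCF-1. A match is a description of the letters and not a binding site.

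How far the low values of these genes rest on cluster 2 was worked out by taking that cluster out of the reference. Each low cluster was then compared with the cells outside both itself and cluster 2. Against all other cells, Gyg, Gpx3, Rbpms and Hcfc1r1 had 9, 11, 7 and 8 lower entries. Without cluster 2 in the reference, 4 of 9, 3 of 11, 1 of 7 and 0 of 8 still reached -0.5 on the natural log scale. With Malat1, which cluster 2 also lists higher, this left 11 of 40 entries. Of these 11, 5 had fewer than 25.1% of cells positive on both sides without cluster 2. They were Gyg in clusters 0, 3, 7 and 8 and Rbpms in cluster 12. This is under the smallest share of the table, so they were in the table only through cluster 2. With that share applied again, 6 entries were left. The same low detection held for some entries that no longer reached -0.5. These were Rbpms in its other lower clusters, Gyg in clusters 5, 10 and 12, and Hcfc1r1 in clusters 1, 5, 6 and 12. Over the 42 genes that cluster 2 lists higher and other clusters list lower, 62 of 169 entries were left by the fold, or 36.7%, and 44 with the detection share applied again, counts that include these 5 genes.

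Some clusters then lay at the mean of the others. Gpx3 in clusters 0 and 5, which were 2.72-fold and 2.47-fold lower per the authors' deposited table, came to within 1.01-fold and 1.06-fold of the remaining cells. Gyg in cluster 4 turned from 2.77-fold lower per the authors' deposited table to 1.29-fold higher. Its detection had already pointed that way, at 30.4% inside against 29.0% outside per the authors' deposited table, and 17.9% outside once cluster 2 was removed. Gyg in clusters 0, 3, 7 and 8 stayed lower in fold, by 1.89-fold, 2.01-fold, 1.92-fold and 2.04-fold, at the low detection just named, and in cluster 5 its value of 1.65-fold was just short of 0.5 on the natural log scale. Gpx3 stayed lower in clusters 3, 8 and 12, by 1.87-fold, 2.03-fold and 1.94-fold, and Rbpms in cluster 12, again at low detection, by 1.70-fold. The higher entries grew, as they must when the highest cluster leaves the reference. Gpx3 was 6.34-fold higher in cluster 9 and 6.21-fold in cluster 13, and Gyg 10.5-fold higher in cluster 13.

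**Figure D3:**
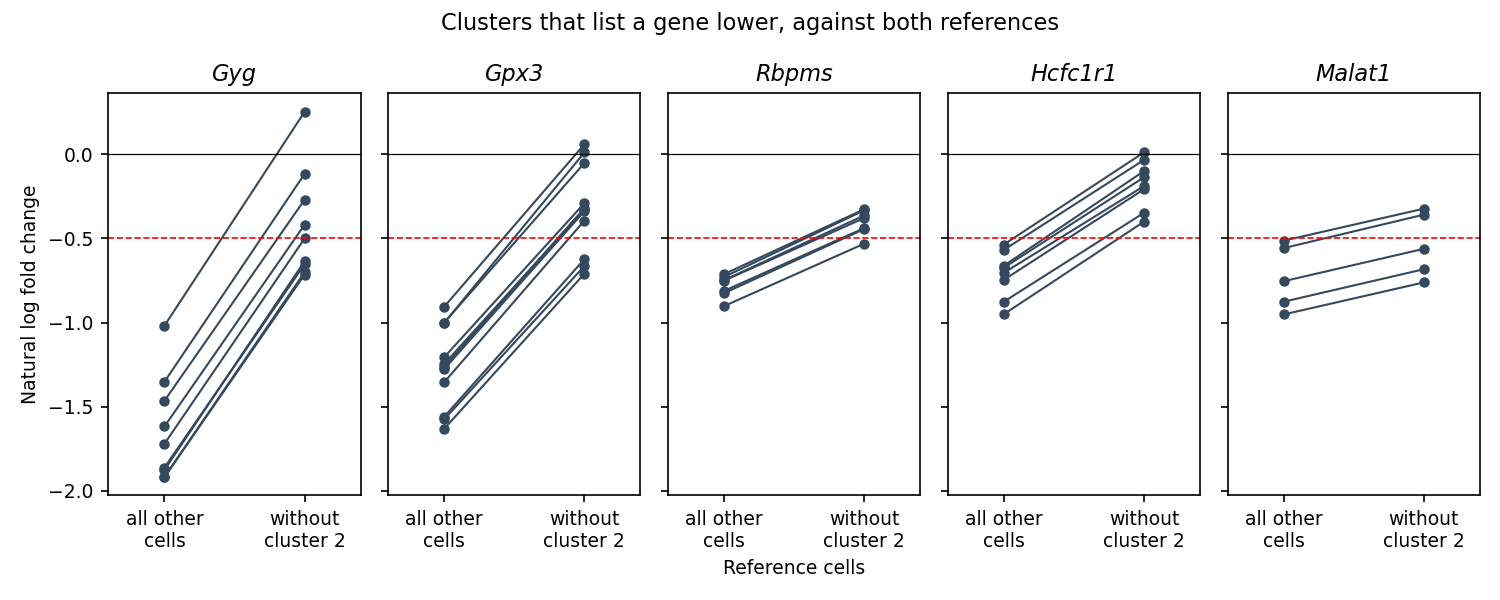
Natural log fold change (y axis) of each cluster that lists a gene lower, against all other cells (left points, from the authors' deposited table) and with cluster 2 taken out of the reference (right points), with lines joining the same cluster and a dashed line at -0.5. Every line must go up, since cluster 2 is the highest listed cluster of each gene shown. Of the 40 right points, 11 lie at or below the dashed line.

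Cluster 13 had fewer positive cells than its levels would place it among the other clusters. Gyg and Gpx3 were each found in 50.8% of its cells and Hcfc1r1 in 45.3%, per the authors' deposited table, while their levels were 3.04, 2.43 and 1.98. Between 25.7% and 49.7% of cluster 13's cells had each of the 9 cardiomyocyte markers, against 60.6% to 98.4% in cluster 2, per the authors' deposited table. Of the 10 mitochondrially encoded genes, 10 were higher in cluster 13, 4 in cluster 2, 3 in cluster 14 and 0 in cluster 9, where Gpx3 and Hcfc1r1 were also higher. The shares of all table genes listed higher in these clusters were 5.35%, 22.7%, 26.2% and 9.61%, and the part of these genes in the values of cluster 13 was not tested.

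**Figure D4:**
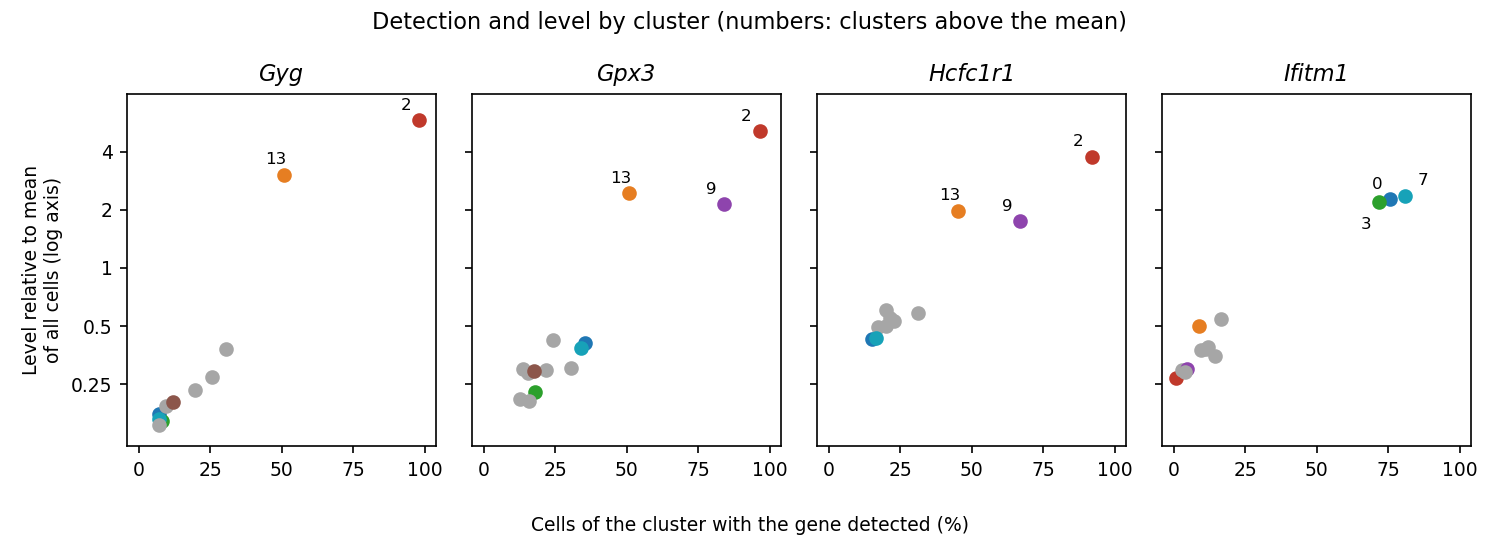
Share of a cluster's cells with the gene detected (x axis, percent, from the authors' deposited table) against its level relative to the mean of all cells (y axis, log scale) for Gyg, Gpx3, Hcfc1r1 and Ifitm1, with 1 point per cluster that lists the gene and numbers on the clusters above the mean. Cluster 13 lies left of cluster 9 at about the same level for Gpx3 and Hcfc1r1, and the 3 high clusters of Ifitm1 lie together.

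Ifitm1 divided the clusters into a high and a low set. It was 2.95-fold higher in cluster 0, 2.63-fold in cluster 7 and 2.54-fold in cluster 3, and detected in 75.7%, 81.0% and 71.9% of their cells, per the authors' deposited table. Levels in these clusters were 2.26, 2.36 and 2.19, at most 1.08-fold apart. The next of the clusters that list Ifitm1, cluster 14, was 4.01-fold below cluster 3 at 0.545, an entry that a deposited adjusted p of at most 0.01 would remove. The lowest was cluster 2, at 0.268, where 0.9% of cells were positive against 36.2% outside, per the authors' deposited table. The 3 high clusters together held 78.2% of all cells that detected Ifitm1. Clusters 8 and 10, which do not list it, averaged 0.673 times the mean, so at least 1 of them lay above cluster 14.

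Its family had another pattern. Of 8 genes on the list 4 were in the table, and no other one was listed for cluster 0 or 7. Ifitm3 was 2.74-fold higher and Ifitm2 2.17-fold higher in cluster 10 per the authors' deposited table, a cluster that does not list Ifitm1. Ifitm2 was 1.97-fold lower in cluster 2 and 3.05-fold in cluster 14 per the authors' deposited table. Bst2, another interferon-induced membrane protein, was 2.80-fold higher in cluster 8 and 1.76-fold in cluster 3 per the authors' deposited table. Cluster 3 was thus the only cluster that listed both Ifitm1 and another gene of the list higher.

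Emb was highest in cluster 3 and spanned 21.3-fold between its highest and lowest cluster. The authors' deposited table gave it as 5.05-fold higher in cluster 3 and 2.07-fold in cluster 7, with 99.0% and 90.7% of cells positive. The levels were 3.56 and 1.93, followed among the clusters that list it by 0.5995 in cluster 13. A deposited adjusted p of at most 0.01 would remove the entry of cluster 13. Clusters 10, 5 and 2 were lowest, at 0.167, 0.167 and 0.191, where 9.2%, 6.8% and 13.6% of cells were positive per the authors' deposited table. Clusters 0, 8 and 14, which do not list Emb, averaged 1.29 times the mean with 79.5% of cells positive. With cluster 3 taken out of the reference, an alternative chosen after seeing the data, 6 of the 10 lower entries of Emb still reached -0.5 on the natural log scale. In cluster 6 detection barely differed, at 52.8% inside against 53.4% outside, beside a 1.90-fold lower mean, per the authors' deposited table.

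Bsg, which encodes the related transporter escort basigin, went the other way in cluster 2. It was 3.29-fold higher there, where Emb was 5.86-fold lower, per the authors' deposited table. Both were lower in clusters 5 and 10, Bsg by 1.98-fold and 1.66-fold and Emb by 6.44-fold and 6.14-fold, per the authors' deposited table. The lactate exporter gene Slc16a3 was 1.77-fold higher in cluster 2 and 1.86-fold lower in cluster 5, and Slc16a1, another lactate transporter, was 2.05-fold higher in cluster 3, per the authors' deposited table. These 3 and Emb were the 4 of 8 list genes in the table.

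Ppp1r1a had the smallest range, 4.06-fold. It was 2.03-fold higher in cluster 7 and 1.88-fold in cluster 3, in 52.2% and 51.7% of cells, and 1.72-fold to 2.24-fold lower in 7 clusters, per the authors' deposited table. The levels were 1.89 and 1.72, within 1.10-fold of each other, and 0.466 to 0.597 in the 7 lower clusters, of which cluster 6 was lowest. Inhibitor-1 is known for its role in heart muscle, and Ppp1r1a was not listed for cluster 2. The 6 clusters without an entry (0, 2, 8, 10, 11 and 13) averaged 1.14 times the mean with 34.2% of cells positive. Of 23 phosphatase 1 and protein kinase A genes 4 were in the table, and the 3 others were higher in cluster 2 only: Pln, the phospholamban gene of the calcium pump, at 3.72-fold, Ppp1r14c at 3.25-fold and the catalytic subunit gene Ppp1cb at 1.78-fold, per the authors' deposited table.

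Malat1 differed in amount and not in detection. Between 98.2% and 100% of cells were positive in each of the 7 clusters that list it, per the authors' deposited table. It was 2.66-fold higher in cluster 2 and 1.82-fold in cluster 10, and lower in clusters 7, 0, 8, 3 and 14 by 2.59-fold, 2.40-fold, 2.13-fold, 1.75-fold and 1.67-fold, per the authors' deposited table. The levels of clusters 2 and 10 were 2.20 and 1.78, and those of the 5 low clusters 0.403 to 0.599. The 8 clusters without an entry averaged 1.06 times the mean. Without cluster 2 in the reference, clusters 0, 7 and 8 were still lower, by 1.98-fold, 2.14-fold and 1.75-fold. In 4 of its 7 entries the fold and the detection share did not point the same way. Gpx3 in cluster 0 and Gyg in cluster 4 were the only other such entries among the 8 genes, and the whole table held 16, or 0.723% of its entries.

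Meg3, an imprinted noncoding RNA, shared 6 clusters with Malat1 and had the same direction in all of them. It was 2.02-fold higher in cluster 2 and lower in clusters 0, 3, 7, 8 and 14, by 1.70-fold to 3.24-fold, per the authors' deposited table. H19, another imprinted one, was lower with Malat1 in clusters 3 and 8, by 2.99-fold and 3.32-fold, and higher where Malat1 was lower in clusters 7 and 14, by 1.89-fold and 2.80-fold, per the authors' deposited table. Gas5 was 2.38-fold lower in cluster 2 per the authors' deposited table, where Malat1 was higher, and 1.77-fold lower in cluster 14, where Malat1 was lower too. Airn was 2.14-fold higher in cluster 2 with Malat1, per the authors' deposited table. Of 21 long noncoding RNAs 6 were in the table, and Neat1, the neighbour of Malat1 on the chromosome, was not.

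By cluster, the 8 genes were listed together in a few combinations. Cluster 2 listed 5 of 8 higher, where 22.7% of table genes were, and 2 lower, where 25.7% were. Cluster 9 listed 3 higher (9.61%) and 3 lower (4.01%), and cluster 13 listed 3 higher (5.35%) and 2 lower (2.01%). Clusters 3 and 7 each listed Ifitm1, Emb and Ppp1r1a higher (5.26% and 3.34%), cluster 3 with 3 lower (3.01%) and cluster 7 with 4 lower (2.84%). Cluster 0 listed Ifitm1 higher (3.09%) and 4 genes lower (3.76%), and cluster 8 listed none higher (5.51%) and the same 4 genes lower (4.26%). In clusters 4, 5, 6 and 12 the same 7 genes, all but Malat1, were lower (2.42%, 4.26%, 2.17% and 3.84%) and none higher (1.92%, 4.09%, 2.51% and 7.77%). Cluster 1 listed 6 lower (2.59%) and none higher (3.93%). Cluster 10 listed Malat1 higher (6.85%) and 4 genes lower (4.09%), cluster 11 listed 4 lower (1.59%) and none higher (0.835%), and cluster 14 listed 3 lower (9.19%) and none higher (26.2%). The genes were chosen from these same entries, so the counts stand as a description beside the shares of all table genes.

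Likeness of pattern was measured by Pearson's r between fold changes over the 15 clusters, with clusters that do not list a gene set to 0, among 82 genes listed for at least 5 clusters. Each cluster was compared with nearly the same other cells, so the points are not independent. The value 0 is a convention, since clusters without an entry need not lie at the mean. Those that do not list Gyg averaged 0.570 times the mean. Myl9, a regulatory myosin light chain gene of smooth muscle, was nearest to Gpx3 (r = 0.96), Gyg (0.93) and Hcfc1r1 (0.91), and Gpx3, Gyg and Hcfc1r1 had one another among their nearest 3, at 0.85 to 0.88, apart from Gyg for Hcfc1r1, where the third place went to Csrp1 (0.85). Rbpms was nearest to Myl6 (0.95), Tpm1 (0.93) and the glucose transporter gene Slc2a1 (0.90). With cluster 2 left out of the correlation, over 14 clusters, Myl9 had r of 0.91, 0.85 and 0.79 with Gpx3, Gyg and Hcfc1r1. Gpx3 with Gyg fell to 0.72. Cluster 2 was still among the other cells behind these 14 fold changes, so its part in the likeness was not removed.

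The other genes had looser neighbours. Ifitm1 was nearest to the linker histone gene Hist1h1e (0.79), Emb (0.77) and Ppp1r1a (0.76). Emb was nearest to the chaperone gene Hsp90aa1 (0.86), Ifitm1 and Hist1h1e (0.73), and Ppp1r1a to Ifitm1, Clu (0.61) and Emb (0.59). Ifitm1 and Emb were both listed for 11 clusters and had the same direction in all 11. Malat1 was nearest to 3632451O06Rik (0.77), Meg3 (0.76) and Csrp2 (0.74), and opposite to Emb, with r of -0.79 and no cluster of the same direction among the 4 that list both.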

How the data were processed

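Single cells of 4 libraries, 1 per group, were profiled with 10x Genomics chemistry, and Cell Ranger, Seurat and the mm9 build are named in the submitters' processing notes, without versions. The authors deposited a table of 2212 entries, per the file header, each comparing 1 gene in 1 of 15 clusters with the other cells. The deposited fold changes were read as natural log values from their header name, and folds are their exponentials. The authors' deposited detection fraction, inside and outside each cluster, is printed as a percentage. P-values deposited by the authors rest on cells, which are not replicates, and served solely to filter entries in 1 alternative. For cell filters, doublets and clustering settings the sources used here give nothing.

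Cluster sizes were solved by least squares from the condition that the share of all cells with a gene is the same from every cluster that lists it, over 407 genes listed for 2 or more clusters. Together they came to 100.002%, and the SD of the residuals was 0.0228 percentage points. For a fold F and a size w, the level is F divided by wF + 1 - w. The means of clusters that do not list a gene are what remains to the mean of all cells. On simulated data of 15 clusters and 1500 genes, sizes were recovered to within 0.00724 percentage points and levels to within 0.000405 on the natural log scale. The simulation used exact cluster means with rounded detection shares and drew no cells. It therefore checks the algebra and the rounding, and not the counting error of the levels. The 8 genes, the gene lists and the tests were chosen with earlier results of these data known. The rule for names took the 8 genes, the 3 genes nearest to each, the 3 largest changes of each gene list, and other genes listed for at least 7 clusters, and the text prints part of these. Other genes of the lists named with values were chosen after those values were seen. Calculations used Python 3.11.15, numpy 2.4.6, pandas 2.3.3 and matplotlib 3.10.9. Alternatives were stricter thresholds, fewer clusters, other size solutions, another log base, other reference cells and other measures of likeness.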

Additional observations from a re-analysis of the deposited data

How the results depend on the processing

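The count of 86 entries of the 8 genes (19 higher, 67 lower) fell to 57 when the natural log fold had to reach 0.75 in size, with 12 higher. It fell to 39 when the natural log fold had to reach 1, with 7 higher and 32 lower. Requiring 50% of cells positive inside or outside the cluster left 33 entries, of which 15 were lower, by construction of a stricter threshold. A deposited adjusted p of at most 0.01 left 82 entries, and dropping the 2 smallest clusters left 78. The p filter removed Gyg in cluster 4, Emb in cluster 13, and Ifitm1 and Ppp1r1a in cluster 14. For Gyg, Emb and Ifitm1 these were the next listed clusters below the high ones. Without cluster 13, a choice made after seeing the data, 81 were left. At a natural log fold of at least 1 in size, no entry of Ppp1r1a or Malat1 was left. All 86 levels lay at least 1.5-fold from the mean of all cells, under each of the size solutions. The smallest deposited natural log fold, 0.50 in size, nearly fixed this count in advance. With cluster 2 out of the reference this count was 54, of which 45 were recomputed and 9 are the levels of Ppp1r1a, whose reference stayed as it was because cluster 2 does not list it, and the 7 entries of cluster 2 drop out, and with logs read as base 2 it was 72. The 11 lower entries left without cluster 2 were 11 with the other size solutions and 10 with base 2, and 6 with the table's smallest detection share applied again, a choice made after seeing the data. Of the 24 nearest-gene picks, 12 were shared with Spearman's correlation, 4 with only clusters that list both genes and 18 without cluster 2. In the last of these, cluster 2 stayed in the reference of the other clusters. The names of the nearest genes thus depend on the measure. The cause of these shifts was not tested. No paired analysis was possible because each group has 1 library and the table separates none. Genotype and stage were not contrasted for the same reason. Depth is unknown, so it sets no stated limit on small differences.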
